A study of Mus musculus with 8 samples.

Results

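The 10 genes described here encode the calcium release, uptake and buffering machinery of striated muscle: Atp2a1, Atp2a2, Ryr1, Pvalb, Sln, Cacna1s, Cacng1, Jsrp1, Trdn and Casq2. They were taken by gene symbol from a table of read counts for 49315 Ensembl genes, and all 10 were found. The table holds bulk RNA sequencing of femoral shaft bone from male C57BL6 mice aged 24 weeks, 4 wild-type (WT) and 4 Girk3 KO (KO, Girk3-/-), with 1 library per mouse. Kcnj9 encodes Girk3, one of the inwardly rectifying potassium channel proteins that open on G protein signals. The labels name no promoter, Cre driver or deleted exon for the KO. The bone ends were cut away and the marrow was flushed out, so that what was left is shaft bone with whatever muscle stayed attached to it.

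In a muscle fibre, an action potential moves a voltage sensor in the transverse tubule, and the sensor opens a release channel in the sarcoplasmic reticulum. Calcium held in the reticulum by calsequestrin then flows onto the thin filaments. Relaxation follows when calcium is pumped back into the reticulum, and in fast fibres a soluble buffer takes up calcium in the meantime. Atp2a2 is also used as a housekeeping calcium pump in most cell types.

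The start regions are shown first, for those members that had a promoter window on record. Whether shared letters went with shared levels across libraries was not tested. RefSeq promoter windows on GRCm38.p6, from 250 bases before to 50 bases after the annotated start, were found for 5 of the 10 genes (6 windows, 2 of them for Pvalb). Capitals mark matches, on either strand, to TATAAA, to the E-box CAGCTG, which is bound by myogenic factors, to the MEF2 site or to the CArG box. Each sequence is written on the strand of its gene. The windows are chr7:126463024-126463323 for Atp2a1 (minus strand), chr1:136052561-136052860 for Cacna1s (plus strand), chr7:29125102-29125401 for Ryr1 (minus strand), chr15:78206351-78206650 for the upstream start of Pvalb (minus strand) and chr3:102086165-102086464 for Casq2 (plus strand).
Atp2a1: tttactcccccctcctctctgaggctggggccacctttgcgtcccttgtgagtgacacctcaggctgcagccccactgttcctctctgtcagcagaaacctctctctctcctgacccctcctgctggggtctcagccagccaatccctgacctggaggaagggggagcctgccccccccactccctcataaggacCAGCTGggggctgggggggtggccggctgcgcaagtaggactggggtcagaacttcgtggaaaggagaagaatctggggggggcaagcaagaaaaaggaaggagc
Cacna1s: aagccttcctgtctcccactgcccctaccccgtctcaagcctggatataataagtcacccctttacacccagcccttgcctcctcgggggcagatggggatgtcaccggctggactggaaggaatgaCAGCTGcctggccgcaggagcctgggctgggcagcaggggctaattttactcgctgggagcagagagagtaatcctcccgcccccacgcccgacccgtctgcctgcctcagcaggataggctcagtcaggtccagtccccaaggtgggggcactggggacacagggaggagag
Ryr1: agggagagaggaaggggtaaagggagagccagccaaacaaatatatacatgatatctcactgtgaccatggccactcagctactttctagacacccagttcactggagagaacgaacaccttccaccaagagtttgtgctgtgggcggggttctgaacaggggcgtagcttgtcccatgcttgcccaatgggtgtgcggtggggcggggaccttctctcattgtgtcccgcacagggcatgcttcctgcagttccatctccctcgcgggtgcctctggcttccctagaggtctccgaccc
Pvalb: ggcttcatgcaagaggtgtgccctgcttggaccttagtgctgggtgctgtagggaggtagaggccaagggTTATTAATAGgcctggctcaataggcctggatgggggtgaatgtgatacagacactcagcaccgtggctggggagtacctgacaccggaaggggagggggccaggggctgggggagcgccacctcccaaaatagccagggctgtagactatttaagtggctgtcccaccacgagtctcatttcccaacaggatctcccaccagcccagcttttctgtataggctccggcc
Casq2: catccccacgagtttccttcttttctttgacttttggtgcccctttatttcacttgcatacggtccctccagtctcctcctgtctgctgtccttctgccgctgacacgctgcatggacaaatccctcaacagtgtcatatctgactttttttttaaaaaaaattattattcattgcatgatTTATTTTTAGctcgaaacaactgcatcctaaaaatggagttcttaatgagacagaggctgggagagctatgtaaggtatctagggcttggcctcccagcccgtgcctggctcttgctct
The E-box began 55 bases before the start of Atp2a1 and 123 bases before that of Cacna1s. A MEF2 match began 180 bases before the start of Pvalb, with the letters TTATTAATAG, and 69 bases before that of Casq2, with the letters TTATTTTTAG. The Ryr1 window and the other Pvalb window held none of the 4 motifs. Of all 32851 windows of this length, 16.3% held the E-box, 3.19% a MEF2 match, 13.6% TATAAA and 1.63% a CArG box. These matches describe the letters of the windows and say nothing about binding.

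The libraries held 30087749 to 36553713 counts. The targeted gene, Kcnj9, was barely detected, with 7, 6, 6 and 23 counts in the WT libraries against 0, 8, 4 and 7 in the KO libraries, which is too few to check the genotypes. Muscle content was taken as the counts of 42 sarcomere and muscle metabolism genes, none of them a member, of which Myh4, Tnnt3, Acta1 and Ckm were the most abundant. They took 14.8, 14.9, 15.6 and 10.2% of the counts in WT replicates 1 to 4, and 14.3, 14.6, 16.3 and 18.6% in KO replicates 1 to 4. The means were 13.9 ± 2.48% and 16.0 ± 1.98% (SD, n = 4 each), and the groups overlapped (two-sided exact permutation p = 0.314). Without both replicates 4 the difference was -0.027 percentage points. The bone markers Runx2, Sp7, Col1a1, Col1a2, Bglap, Ibsp, Dmp1, Sost, Phex and Mepe were present in every library, at a summed 9005 to 21876 CPM in WT and 10021 to 18270 CPM in KO. Their log2 fold changes of KO over WT were positive in 1 and negative in 9, with a median of -0.27. At an unadjusted edgeR p under 0.05, 2 of them were lower, beside 8.59% of all genes tested, and 0 passed after adjustment. CPM stands for counts scaled to a common library size, with sizes adjusted by the TMM method. The TMM factor was 1.18 in WT replicate 4 and 0.831 in KO replicate 4, against 0.986 to 1.05 in the other libraries. A factor above 1 lowers CPM and a factor below 1 raises it. Of 8 heart muscle markers, Myl7, Ryr2 and Nppa stayed below 0.5 CPM in all libraries. The list summed to 25.0 to 61.7 CPM in WT and 54.5 to 67.5 CPM in KO, most of it Actc1. Smooth muscle markers summed to 182 to 214 CPM in WT and 186 to 272 CPM in KO. Adipocyte markers (Adipoq, Plin1, Cidec, Fabp4, Lep and Ucp1) summed to 303 to 553 CPM in KO and 242 to 302 CPM in WT, with positive values in 5 of the 5 genes abundant enough to test. Of these 5, 1 had an unadjusted edgeR p under 0.05. The lowest KO sum (303.0 CPM, replicate 3) lay barely above the highest WT sum (301.7 CPM, replicate 3). The 7 neutrophil genes all had positive values, and their sums overlapped widely, at 1506 to 5255 CPM in WT and 756 to 7136 CPM in KO. The part of these cell types in the members' values was not tested. In bulk tissue, fewer muscle fibres and less RNA per fibre cannot be told apart.

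None of the 10 members passed edgeR's quasi-likelihood test at an adjusted p of 0.05, where 0.0115% of the 17450 genes tested passed in either direction. All 10 were abundant enough to be tested. The log2 fold change of KO over WT was positive in 7 of the 10 and negative in 3, and its median was 0.53 against -0.01 over all genes tested. The 42 muscle genes also leaned to KO, with a median of 0.34, 36 positive values and 10 genes higher at an unadjusted p under 0.05. Among the members the highest log2 fold changes were those of Sln (1.86), Pvalb (0.77) and Jsrp1 (0.70). These members also had an unadjusted p under 0.05, as did 9.59% of all genes in that direction. DESeq2, run on all genes with counts and with its own default filter on mean count, called 2 members, Pvalb and Jsrp1, where it called 3.2% of 31069 genes. The 31069 are all genes with a p-value, also any that this filter kept from being called. Their share is therefore not directly comparable with shares over the 17450 genes. With limma-voom Jsrp1 alone was called, beside 4.02% of the 17450 genes. With the muscle level as a covariate edgeR called 6.47% of genes, and without both replicates 4 it called 2.62%, in each case with 0 of the members. Per kilobase of exon, the order in WT was Pvalb, Atp2a1, Jsrp1, Trdn, Cacng1, Ryr1, Cacna1s, Atp2a2, Casq2 and Sln, from 5843 ± 1515 down to 3.13 ± 1.21 CPM per kb (SD, n = 4). From Jsrp1 down to Atp2a2 the WT ranges of each neighbouring pair overlapped. Within each WT library, Trdn (148 ± 41.6) still stood above Cacng1 (130 ± 35.3) and Ryr1 (104 ± 36.5). Ryr1 exceeded Cacng1 in WT replicate 1 only. Atp2a2 (58.0 ± 24.0) exceeded Cacna1s (60.9 ± 24.9) in WT replicates 1 and 4, so neither of these pairs is resolved. In KO the order was the same except that Atp2a2 (91.2 ± 58.4) stood above Cacna1s (52.3 ± 27.5) and that Sln and Casq2 were equal at 11.3 CPM per kb, again within their spread. Exon lengths are those of all isoforms joined, so a gene with long unused exons is placed too low.

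**Figure D1:**
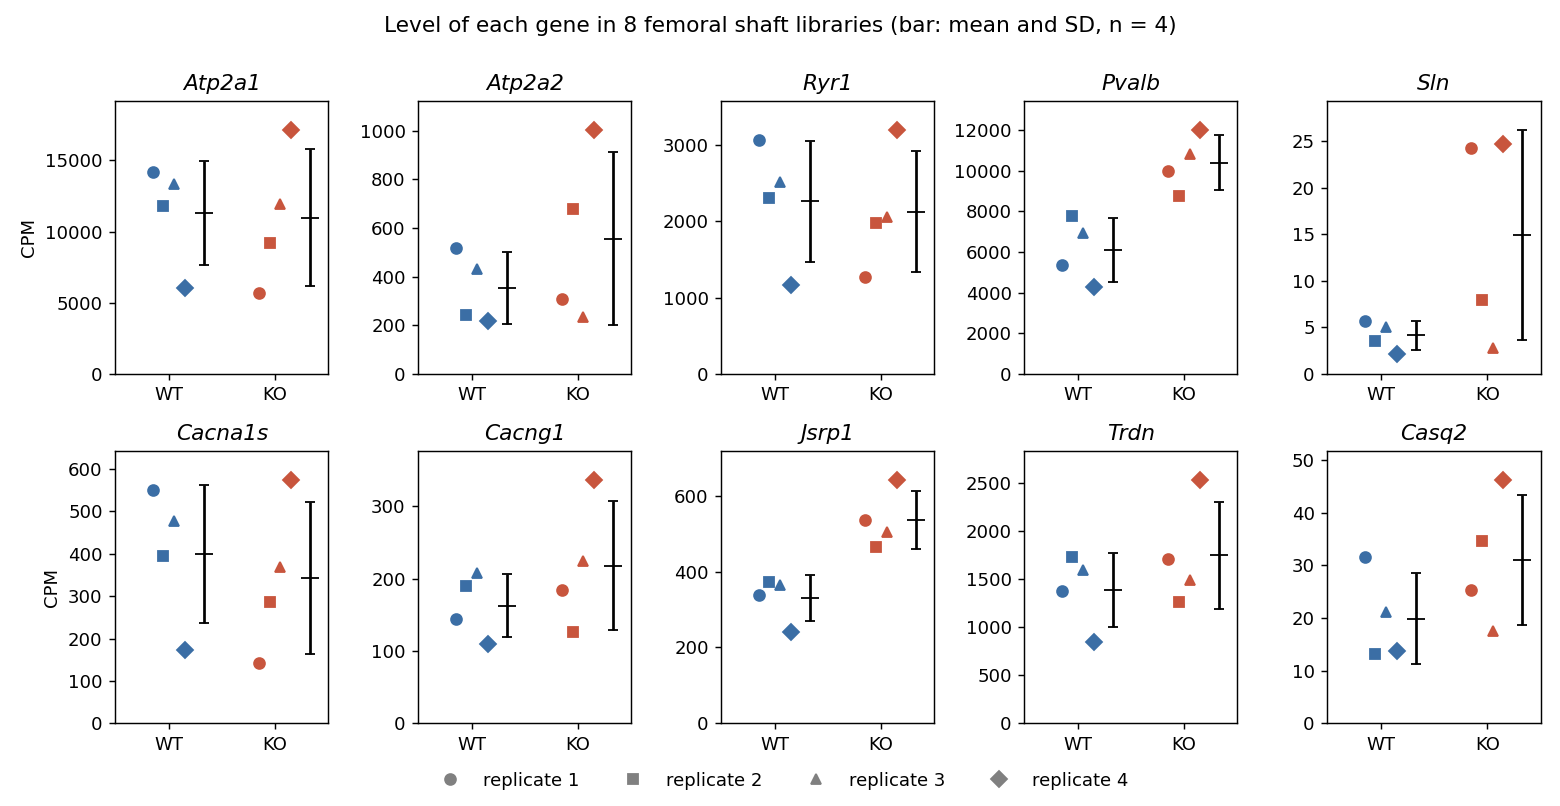
CPM of the 10 genes in each library, with WT in blue, KO in red, the replicate number as the symbol, and the mean and SD of 4 libraries as a black bar. Pvalb and Jsrp1 have no overlap between KO and WT, while the groups overlap for the other 8 genes.

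The voltage sensor and the release channel did not differ between genotypes beyond the spread. Cacna1s (ENSMUSG00000026407, chromosome 1, 136052750 to 136119822, GRCm38) encodes the pore-forming subunit of the L-type channel that senses voltage in skeletal muscle. It was at 551, 395, 477 and 174 CPM in WT replicates 1 to 4, and at 143, 286, 368 and 574 CPM in KO replicates 1 to 4. The groups overlapped over nearly their whole range, with the highest and the lowest library in CPM both KO. Before scaling, WT replicate 1 had more counts of Cacna1s (18767 of 34534766) than KO replicate 4 (15152 of 31762643), so which library is highest depends on the scaling. KO over WT, its log2 fold change came to -0.22 (SE 0.43, edgeR adjusted p = 0.835, 95% interval -1.17 to 0.73). Ryr1 (chromosome 7, 29003344 to 29125179) encodes the release channel that this sensor opens. Its levels in WT were 3066, 2302, 2516 and 1170 CPM, and in KO 1274, 1979, 2063 and 3195 CPM. WT replicate 4 and KO replicate 1 were the lowest libraries for both genes, and WT replicate 1 and KO replicate 4 the highest. Before scaling, WT replicate 1 had more counts of Ryr1 (104483) than KO replicate 4 (84294). For Ryr1 the log2 fold change came to -0.09 (SE 0.34, edgeR adjusted p = 0.923, 95% interval -0.84 to 0.67). Cacng1 (chromosome 11, 107703218 to 107716522), the gamma subunit of the muscle L-type channel, was at 144, 190, 207 and 110 CPM in WT and at 184, 126, 225 and 337 CPM in KO. It thus had its highest library in KO replicate 4, and the groups overlapped. Its log2 fold change was 0.42 (SE 0.30, edgeR adjusted p = 0.498).

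Of the proteins that hold the junction together, Jsrp1 stood higher in all 4 KO libraries than in any WT library. Jsrp1 (ENSMUSG00000020216, chromosome 10, 80808496 to 80813498) encodes JP-45, a protein of the junctional reticulum that binds the voltage sensor and calsequestrin. It was at 338, 372, 366 and 242 CPM in WT, and at 536, 463, 505 and 642 CPM in KO. The lowest KO library stood above the highest WT library, as it did for 7.33% of all genes tested. The means were 329 ± 60.3 and 537 ± 76.0 CPM (SD, n = 4 each), which gives 0.70 as the log2 fold change (SE 0.18, 95% interval 0.30 to 1.11). The edgeR adjusted p was 0.101, while DESeq2 gave 0.00530 and limma-voom 0.0488. Trdn (chromosome 10, 33080554 to 33476709) encodes triadin, which anchors calsequestrin at the release channel. It was at 1372, 1731, 1592 and 845 CPM in WT and at 1706, 1257, 1489 and 2529 CPM in KO, with KO replicates 1 to 3 inside the WT range and KO replicate 4 above it. For Trdn the log2 fold change came to 0.33 (SE 0.28, edgeR adjusted p = 0.581).

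The calcium store was represented by Casq2, the calsequestrin of heart and slow fibres (chromosome 3, 102086415 to 102146514). It was at 31.6, 13.1, 21.1 and 13.7 CPM in WT and at 25.3, 34.6, 17.6 and 46.2 CPM in KO. KO replicates 2 and 4 were above all WT libraries and the other KO libraries were among them. The log2 fold change was 0.64 (SE 0.34, edgeR adjusted p = 0.353). Casq1, the fast-fibre calsequestrin, named here after its values were seen, was at 1625 ± 386 CPM in WT against 2204 ± 488 CPM in KO (SD, n = 4 each), and its log2 fold change came to 0.44 (edgeR adjusted p = 0.378).

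The pumps that return calcium to the reticulum did not pass the test. Atp2a1 (ENSMUSG00000030730, chromosome 7, 126445858 to 126463108) encodes SERCA1, the pump of fast fibres. It was at 14183, 11779, 13333 and 6046 CPM in WT and at 5659, 9213, 11949 and 17124 CPM in KO. As for Ryr1 and Cacna1s, KO replicate 1 and WT replicate 4 were the lowest libraries in CPM and KO replicate 4 the highest, and the groups overlapped. The log2 fold change was -0.05 (SE 0.38, edgeR adjusted p = 0.967, 95% interval -0.89 to 0.80). Atp2a2 (chromosome 5, 122453513 to 122502225) encodes SERCA2, the pump of slow fibres, heart and non-muscle cells. It was at 518, 242, 433 and 219 CPM in WT and at 308, 676, 232 and 1001 CPM in KO. The high libraries were KO replicates 2 and 4, and the other KO libraries lay inside the WT range. Its log2 fold change was 0.65 (SE 0.46, edgeR adjusted p = 0.494), and it was 0.21 without KO replicate 4 (edgeR adjusted p = 0.838) and -0.24 with the muscle level as a covariate (edgeR adjusted p = 0.635). Per count of Atp2a2 there were 27.4, 48.8, 30.8 and 27.7 counts of Atp2a1 in WT, and 18.4, 13.6, 51.4 and 17.1 in KO. In 3 of the 4 KO libraries the ratio was below all WT libraries, and in KO replicate 3 it was above them. On the log2 scale the ratio was 4.44 ± 0.85 in KO against 5.03 ± 0.39 in WT (SD, n = 4 each, two-sided exact permutation p = 0.314). The difference of -0.59 moved to between -1.01 and -0.37 when single libraries were left out. Leaving out KO replicate 3, the library that ran the other way, gave -1.01 with the smallest exact permutation p that 3 against 4 libraries can give (0.0286), and leaving out KO replicate 2 gave -0.37 (exact permutation p = 0.600).

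Sln (ENSMUSG00000042045, chromosome 9, 53850164 to 53854560) encodes sarcolipin, a small membrane peptide that binds SERCA and uncouples calcium transport from ATP hydrolysis. It was the least abundant member per kilobase in WT and had the largest log2 fold change of the 10. Its counts were 195, 117, 150 and 92 in WT and 755, 270, 87 and 651 in KO, in the order of the replicates. This corresponds to 5.72, 3.57, 5.06 and 2.14 CPM in WT and to 24.3, 7.94, 2.73 and 24.7 CPM in KO. KO replicates 1, 2 and 4 were above all WT libraries, whereas KO replicate 3 was inside the WT range. The means were 4.12 ± 1.60 and 14.9 ± 11.2 CPM (SD, n = 4 each), which gives 1.86 as the log2 fold change (SE 0.60, edgeR adjusted p = 0.156, 95% interval 0.51 to 3.20). With limma-voom, which weights libraries by their quality, it was 0.65 (adjusted p = 0.548).

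Pvalb was the most abundant member per kilobase and also had all 4 KO libraries above the WT ones. Pvalb (ENSMUSG00000005716, chromosome 15, 78191114 to 78206400) encodes parvalbumin, the soluble calcium buffer of fast fibres. It was at 5330, 7785, 6940 and 4276 CPM in WT, and at 9995, 8754, 10836 and 11979 CPM in KO. The groups did not overlap. The means were 6083 ± 1577 and 10391 ± 1361 CPM (SD, n = 4 each), which gives 0.77 as the log2 fold change (SE 0.25, 95% interval 0.22 to 1.33). Pvalb did not pass edgeR (adjusted p = 0.155) and passed DESeq2 (adjusted p = 0.00878), while limma-voom gave an adjusted p of 0.101.

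To set the members against the amount of muscle in each library, the same test was fitted with the summed counts of the 42 muscle genes in place of library size. On this scale 0 stands for a gene that kept its ratio to the summed muscle counts. The median log2 fold change was -0.35 over all genes tested. Over the 42 muscle genes it was 0.01, a value held near 0 by the fit itself, since their own sum is the library size. None of the 10 members passed (edgeR, 0.0115% of all genes passed), and on the same scale DESeq2, which called 0.27% of genes, and limma-voom, which called 1.43%, also called 0 of them. For KO over WT, 7 of the 10 values were positive and 3 negative, and their median was 0.20. Pvalb (0.48, SE 0.16), Sln (1.57, SE 0.55) and Jsrp1 (0.40, SE 0.17) had an unadjusted p under 0.05 and an edgeR adjusted p of 0.398 each, and no member did so in the lower direction. The value of Sln came to 0.28 with limma-voom (adjusted p = 0.792) and to 1.04 without KO replicate 1. Of all genes, 0.338% had an unadjusted p under 0.05 in the higher and 12.1% in the lower direction. All genes are a poor yardstick here, since 14767 of the 17450 had negative values on this scale. Among the 42 muscle genes themselves, whose values this scale centres near 0, 6 were higher and 3 lower at an unadjusted p under 0.05.

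Pvalb stood at 35.6, 52.5, 43.7 and 49.4 counts per 1000 muscle counts in WT and at 70.2, 63.2, 65.6 and 53.4 in KO. Jsrp1 stood at 2.26, 2.51, 2.30 and 2.79 in WT and at 3.76, 3.35, 3.06 and 2.86 in KO. For both genes every KO library was still above every WT library, as for 0.246% of all genes tested and 1 of the 42 muscle genes, but KO replicate 4 exceeded the highest WT library only slightly. Atp2a1 stood at 94.8, 79.4, 83.9 and 69.9 counts per 1000 muscle counts in WT and at 39.7, 66.5, 72.4 and 76.4 in KO. Ryr1 stood at 20.5, 15.5, 15.8 and 13.5 in WT and at 8.95, 14.3, 12.5 and 14.3 in KO. In both genes WT replicate 1 was the highest library and KO replicate 1 the lowest, which is the reverse of their places for Pvalb and Jsrp1. The log2 fold changes relative to muscle were -0.36 (SE 0.20) for Atp2a1, -0.39 (SE 0.19) for Ryr1 and -0.53 (SE 0.29) for Cacna1s, with edgeR adjusted p of 0.418, 0.409 and 0.418. Without KO replicate 1 they came to -0.19, -0.26 and -0.31. Trdn (0.03, 95% interval -0.33 to 0.38) and Cacng1 (0.07, 95% interval -0.39 to 0.52) had values near 0, and their sign changed between settings. Atp2a2 (0.32, SE 0.37) and Casq2 (0.33, SE 0.33) had edgeR adjusted p of 0.653 and 0.607.

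**Figure D2:**
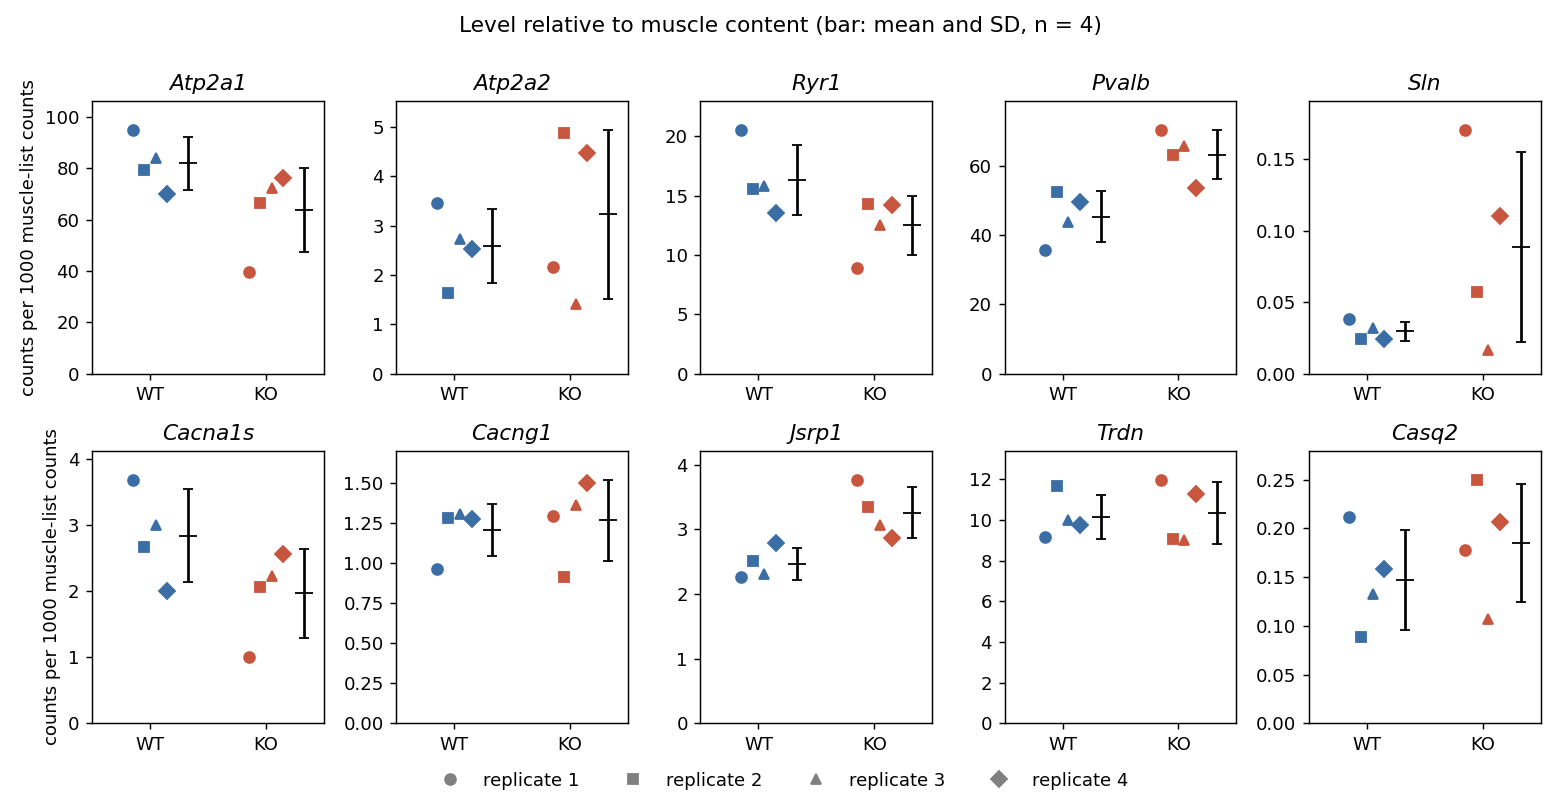
Counts of each gene per 1000 counts of the 42 muscle genes, by library, with WT in blue, KO in red and the mean and SD of 4 libraries in black. WT replicate 1 and KO replicate 1 take opposite ends for Atp2a1, Ryr1 and Cacna1s on the one hand and for Pvalb and Jsrp1 on the other.

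**Figure D3:**
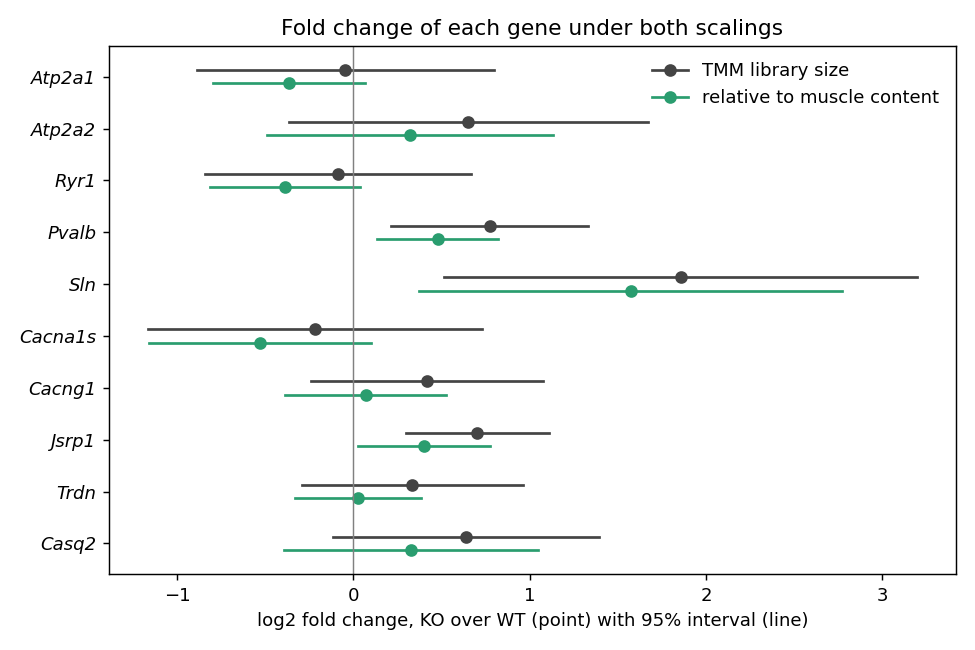
Log2 fold change of KO over WT with its 95% interval for each gene, on TMM library sizes (grey) and relative to muscle content (green). The intervals of Pvalb, Sln and Jsrp1 lie above 0 on both scales before adjustment over all genes, and those of the other 7 genes include 0.

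The sign of the muscle-relative value went with exon length in most members. The members with under 2000 exonic bases, Pvalb (1041), Cacng1 (1249), Sln (1318) and Jsrp1 (1333), had positive values, as had Casq2 (2736), while those of Atp2a1 (3477), Cacna1s (6550) and Ryr1 (21838) were negative. Atp2a2 (6081) and Trdn (9352) did not follow this order, and the value of Cacng1 (0.07) was close to 0. The 42 muscle genes, which the members' choice did not involve, also differed by length: 12 of 14 genes under 2000 bases had positive values, with a median of 0.24, against 1 of 12 genes of at least 4000 bases, with a median of -0.26. Of the 16 genes between these lengths, the class of Atp2a1 and Casq2, 10 had positive values, with a median of 0.07. The trend was not particular to muscle genes. Over all genes tested, on TMM library sizes, the median log2 fold change fell from 0.21 in the shortest decile of exon length to -0.19 in the longest. Pvalb lay in the decile at 0.21, Sln, Cacng1 and Jsrp1 in that at 0.20, and Ryr1 and Trdn in that at -0.19. Counts of the shorter muscle genes per count of the longer ones were 0.887, 1.17, 1.17 and 1.40 in WT replicates 1 to 4, and 1.95, 1.38, 1.55 and 1.26 in KO replicates 1 to 4. WT replicate 1 and KO replicate 1 were the extremes, as for Atp2a1, Ryr1, Pvalb and Jsrp1, and the groups overlapped (two-sided exact permutation p = 0.0857). The length classes and this ratio were chosen after seeing the data. With each library's trend with exon length and GC content removed, the muscle-relative log2 fold changes were 0.35 for Pvalb, 0.30 for Jsrp1, 1.40 for Sln, -0.33 for Atp2a1, -0.41 for Cacna1s and -0.11 for Ryr1 (edgeR adjusted p of at least 0.622 for these genes). On TMM library sizes without that trend, Pvalb was at 0.62 (edgeR adjusted p = 0.280) and Jsrp1 at 0.58 (edgeR adjusted p = 0.172), while Ryr1 turned to 0.17 (edgeR adjusted p = 0.827).

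**Figure D4:**
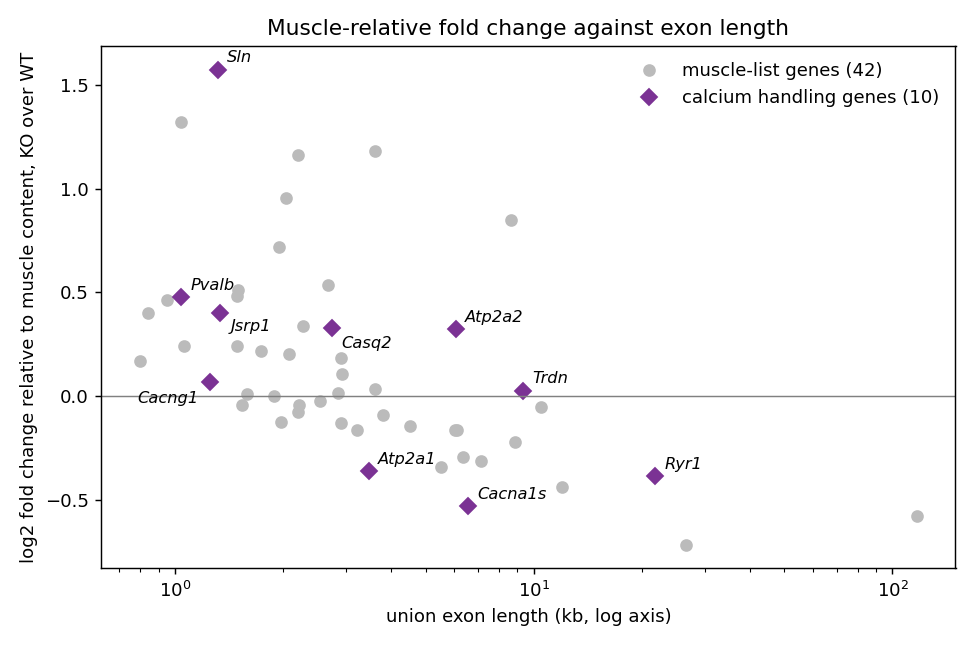
Log2 fold change relative to muscle content against union exon length on a log axis, for the 10 genes (purple diamonds) and the 42 muscle genes (grey circles). Most short genes lie above 0 and most long genes below it, with Sln the highest point.

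Sln, Atp2a2 and Casq2 are the members tied to slow fibres, and the 8 slow-fibre genes Myh7, Myl2, Myl3, Tnnc1, Tnni1, Tnnt1, Tpm3 and Myoz2 varied widely between libraries. Their summed level was 1746, 777, 1819 and 1028 CPM in WT replicates 1 to 4, and 1465, 4250, 1056 and 5426 CPM in KO replicates 1 to 4. KO replicates 2 and 4 stood above all other libraries, as they did for Atp2a2 and Casq2. All 8 had positive values for KO over WT (median log2 fold change 1.22), 5 of them with an unadjusted p under 0.05, and edgeR called 0 of them on either scale. Sln went with them except in KO replicate 1, where Sln was at 24.3 CPM beside a slow-fibre sum within the WT range. The 10 fast-fibre genes summed to 43432 to 82217 CPM in WT and 67329 to 115983 CPM in KO. Markers of muscle precursors and immature fibres (Pax7, Myf5, Myod1, Myog, Myh3 and Myh8) summed to 27.7 to 69.9 CPM in WT and to 37.2 to 66.1 CPM in KO, with 57.8 CPM in KO replicate 1. The part of fibre composition in the levels of Sln, Atp2a2 and Casq2 was not tested.

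**Figure D5:**
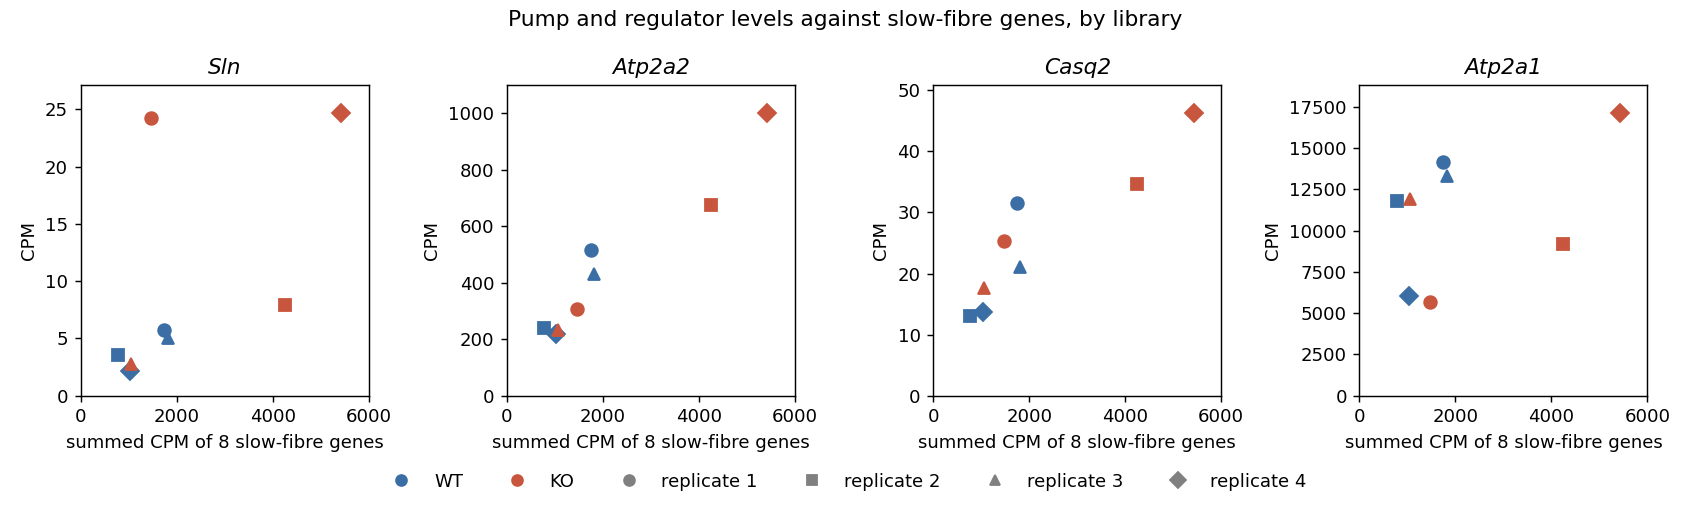
CPM of Sln, Atp2a2, Casq2 and, for comparison, Atp2a1 against the summed CPM of 8 slow-fibre genes, with 1 point per library, WT in blue, KO in red and the replicate number as the symbol. Atp2a2 and Casq2 are highest in KO replicates 2 and 4, which have the highest slow-fibre sums, and Sln is also high in KO replicate 1.

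The genes most like each member were found by Pearson's r of log2 CPM over the 8 libraries among other genes, using a floor of 1 CPM. As the highest of very many values over 8 libraries that share depth and muscle content, these r are a description only. Atp2a2 was most like Myh7, the slow myosin heavy chain (r = 0.983), and Nnt (0.982). Atp2a1 was most like Rab5b (0.996) and Ky (0.989), Ryr1 most like Rab11fip3 (0.997) and Eif4g1 (0.995), and Cacna1s most like Kpna6 (0.992) and Abcc9 (0.990). Trdn was most like Ppp3ca, the catalytic subunit of the calcium-dependent phosphatase calcineurin (0.996), and Gatad1 (0.986). Pvalb was most like Lamtor1 (0.991) and Fam213b (0.988), Jsrp1 most like 1700120C14Rik (0.996) and Fnta (0.991), and Cacng1 most like Map2k5 (0.988) and Ybx1 (0.985). Casq2 was most like Smtnl1 (0.961) and Prox1 (0.957), and Sln most like Gm38211 (0.988) and AV356131 (0.983).

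Among 37 other genes of excitation-contraction coupling, edgeR called none (0.0115% of all genes), 30 had positive and 7 negative log2 fold changes, and the median was 0.19. At an unadjusted p under 0.05, 6 were higher, beside 9.59% of all genes, and 1 was lower, beside 8.59%. In CPM, 4 of the 37 had their groups apart with KO higher (Cav3, S100a1, Mrln and Calm2), beside 7.33% of all genes, and 1 with KO lower. The 4 with the smallest p, named next, did not pass. Cav3, the muscle caveolin, was at 34.5, 36.9, 41.8 and 26.0 CPM in WT and at 62.4, 44.4, 58.2 and 61.0 CPM in KO, so that the groups did not overlap (log2 fold change 0.70, SE 0.16, edgeR adjusted p = 0.0902). S100a1, a calcium-binding modulator of the release channel and of SERCA, was at 112 ± 11.6 CPM in KO against 76.5 ± 9.73 CPM in WT (SD, n = 4 each, log2 fold change 0.55, edgeR adjusted p = 0.0914). Mrln, which encodes myoregulin, a SERCA-inhibiting micropeptide related in function to sarcolipin, was at 30.9, 41.9, 50.4 and 24.9 CPM in WT and at 66.1, 52.3, 79.1 and 71.0 CPM in KO. The groups did not overlap for Mrln, whose log2 fold change was 0.86 (SE 0.22, edgeR adjusted p = 0.0984). Atp2b4, a calcium pump of the plasma membrane, had its highest KO library (59.3 CPM) just below its lowest WT library (60.3 CPM), as 5.78% of all genes had their groups apart in that direction. Its means were 47.3 ± 8.66 CPM in KO against 73.5 ± 13.4 CPM in WT (SD, n = 4 each, log2 fold change -0.63, edgeR adjusted p = 0.102). DESeq2 called 5 of the 37, beside 3.2% of 31069 genes, namely Cav3, S100a1, Mrln, Atp2b4 and Chrna1. Chrna1 encodes a subunit of the muscle acetylcholine receptor (1.55 ± 0.774 CPM in WT against 3.80 ± 1.47 CPM in KO). With limma-voom Cav3 and S100a1 were called, beside 4.02% of the 17450 genes. Relative to muscle content the median of the 37 was -0.13, with 10 positive and 27 negative values, and edgeR called 0 of them. On that scale Cav3 (0.41), S100a1 (0.23), Mrln (0.58) and Atp2b4 (-1.02) all had overlapping groups, with edgeR adjusted p of 0.418, 0.614, 0.398 and 0.398. Of all 37, 1 had its groups apart with KO higher and 2 with KO lower, beside 0.246% and 9.33% of all genes. These were Dhrs7c (0.27) in the higher direction, and Slc8a3 (-0.64) and Cacnb1 (-0.30) in the lower, named after their values were seen. Their edgeR adjusted p were 0.458, 0.398 and 0.434. Of the proteins that join tubule and reticulum, named after their values were seen, Jph1 (0.01) and Jph2 (0.09) had log2 fold changes close to 0 on TMM library sizes, as had the reticulum protein gene Srl (0.00). Relative to muscle content Jph1 was at -0.28, Jph2 at -0.20 and Srl at -0.29 (edgeR adjusted p of 0.451, 0.517 and 0.433).

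Exons shared with other genes could bear on some of these values, which was not tested. Of the exonic bases of Atp2a1, 21.9% overlap Rabep2 on the opposite strand, which had 24408 counts over all libraries beside 2846274 for Atp2a1. Of those of Cacna1s, 19.98% overlap the antisense gene Gm37759, which had 1586 counts beside 94381. The strand setting of the counting is not given in the sources used here.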

How the data were processed

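Whole-number counts per gene were deposited by the authors in 1 table, with a column per library and no normalization. The authors' route from reads to counts ran through STAR 2.5.2b, Subread 1.5.2 (featureCounts) and bcl2fastq 2.17 with genome mm10, as far as the submitters' processing notes list tools, with no order or role. Settings, strand and annotation: not given in the sources used here. Of 49315 IDs, 49056 matched GENCODE M21, which gave symbols, positions and exon lengths.

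KO and WT were compared over 17450 genes with edgeR 4.0.16 in R 4.3.3 (filterByExpr, TMM, robust quasi-likelihood test, Benjamini-Hochberg adjustment, threshold 0.05), once on library size and once on summed muscle counts. Log2 CPM used a prior count of 2. Alternatives used DESeq2 1.42.0, limma 3.58.1, other scalings and filters, and loess offsets (span 0.3). Single values were compared by exact permutation over 70 arrangements, with a smallest p of 0.0286. The fits were tested on simulated data.

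The members, lists and tests were chosen with earlier results of these data known. Named beside the members are the 4 other coupling genes with the smallest p, the 4 most abundant muscle genes and the 2 genes most like each member. Strit1, also on the coupling list, was not matched. Each library was taken as 1 mouse, as the labels state 4 mice per group. At 30087749 to 36553713 counts per library, counting error was small beside the spread between mice.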

Additional observations from a re-analysis of the deposited data

Results flagged for a closer look

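Of 48 groups of 4 libraries examined, 2 had 1 library far from the other 3 by Dixon's test, and chance gives about 1 group in 20. Cacng1 relative to muscle was at 0.964 counts per 1000 muscle counts in WT replicate 1, below 1.27 to 1.30 in the other WT libraries. Muscle content was at 10.2% of the counts in WT replicate 4, below 14.8 to 15.6% in the other WT libraries. Without WT replicate 4 the difference in muscle content between KO and WT fell from 2.09 to 0.86 percentage points (exact permutation p = 0.600).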

How the results depend on the processing

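The count of members called was 0 in edgeR under every alternative scaling, filter, covariate, omission of a library and trend removal tried, on both scales. It was 2 with DESeq2 and 1 with limma-voom on library size. The count of other coupling genes called was 5 with DESeq2 and 2 with limma-voom, and otherwise 0. Pvalb, Jsrp1, Sln and Casq2 had positive values under all alternatives, on library size between 0.56 and 0.91, 0.48 and 0.77, 0.65 and 2.20, and 0.08 and 0.96. The cause of the sign changes that follow was not tested. With the muscle level as a covariate, Atp2a2 was at -0.24 and Trdn at -0.019. With the length and GC trend removed, Ryr1 was at 0.17 and muscle-relative Cacng1 at -0.030. Without both replicates 4, Cacng1 was at -0.020 and Trdn at -0.077, muscle-relative Trdn at -0.037 and muscle content at -0.027 percentage points. On muscle measured by mean log2 CPM, Cacng1 was at -0.026 and Trdn at -0.095. On muscle genes under 2000 bases, chosen after seeing the data, they were at -0.069 and -0.12. With limma-voom on muscle counts, also added later, Atp2a2 was at -0.13 and Trdn at -0.11. Leaving out 1 library at a time gave log2 fold changes of -0.34 to 0.17 for Atp2a1, -0.35 to 0.092 for Ryr1 and -0.59 to 0.033 for Cacna1s on library size, and of -0.024 to 0.20 for Cacng1 and -0.053 to 0.099 for Trdn relative to muscle. The log2 ratio of Atp2a1 to Atp2a2 differed by -1.01 to -0.37, and muscle content by 0.86 to 2.68 percentage points. The labels do not say whether replicate numbers pair the mice. Same-numbered WT and KO libraries had correlations of -0.19, -0.17, -0.25 and -0.57 in their deviations from the group means. Such values cannot show whether same-numbered mice shared a litter, cage or batch. With the number as a block, edgeR called 0 members on both scales, with Pvalb at 0.80 and Jsrp1 at 0.71. Sln, with 87 to 755 counts, is the member that depth limits most.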
